A study of Mus musculus with 12 samples.

Results

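The first steps of T cell receptor signalling were examined through 9 genes, Lck, Fyn, Zap70, Txk, Lat, Lcp2, Grap2, Plcg1 and Themis, chosen by name because their products act close to the receptor. All 9 were found by symbol among the 41128 genes of the expression table, and all 9 passed the filter on low values, which kept the 12520 genes that reached 1 adjusted TPM in 3 libraries or more. TPM is a length-corrected share of the transcripts in a library. How the authors adjusted it is not given in the sources used here, and comparisons of level between genes below take it that the correction for length was kept. RNA of spleen cells from C57BL/6J mice of 6 to 8 weeks was sequenced in 12 libraries, and the labels name no transgene or treatment for any group. B cells were resting cells without surface CD43, in 3 female libraries and 3 male libraries numbered 1 to 3. T cells were naive CD4+ cells with high CD62L, low CD44 and no CD25, in 3 female libraries and 3 male libraries numbered 4 to 6. Each replicate was a pool of mice, and errors below therefore describe differences between pools.

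The T cell receptor has no enzyme of its own. The Src family kinase Lck, which is carried by the coreceptor CD4, and its relative Fyn phosphorylate the tails of the CD3 and zeta chains. The kinase Zap70 docks on these tails and phosphorylates the membrane adaptor LAT (Lat) and the cytosolic adaptor SLP-76 (Lcp2), which the small adaptor GADS (Grap2) holds together. Tec family kinases such as Txk then activate phospholipase C gamma 1 (Plcg1), which produces the second messengers for calcium and Ras signalling, and Themis tunes the strength of the signal during T cell development. The B cell receptor uses a parallel set of relatives, among them the kinases Lyn, Blk, Syk and Btk, the adaptor Blnk and the phospholipase Plcg2.

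Identity markers followed the labels in every library. The T cell genes Cd3d, Cd3e, Cd3g, Cd4, Tcf7 and Bcl11b lay between 62.3 and 516 adjusted TPM in T cells and at no more than 0.764 in B cells. The B cell genes Cd79a, Cd79b, Ms4a1 and Pax5 lay between 128 and 1115 in B cells and at no more than 2.00 in T cells. The T cell libraries numbered 6, one of each sex, stood apart from the other 4. The summed level of 3 regulatory T cell markers (Ikzf2, Il2ra and Foxp3) was 20.97 in female T cell library 6 and 17.2 in male T cell library 6, against 1.75 to 3.14 in the other T cell libraries, although the sort was for cells without CD25, the product of Il2ra. The main results are therefore given with and without these 2 libraries. Sequencing depth is not known from the files, and totals of adjusted TPM ran from 561020 to 1453940.

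Promoter windows were read first, to show what lies at annotated start sites of genes that T cells share with B cells to different degrees. All 9 genes had at least 1 window in the RefSeq table of GRCm38.p6, 14 windows in all, each with 250 bases before and 50 bases after an annotated start site. Windows are shown for Lck and Lat, which had 3.52% and 0.178% of their T cell level in B cells, and for Fyn, Plcg1 and Grap2, which had 11.2% or more. The first 280 bases of each window are given 5′ to 3′ on the strand of the gene, and capitals mark 3 motifs or their reverse complements. These are GGAA, the core bound by ETS factors, then TGTGGT, the core bound by RUNX factors, and CTTTGA, the core bound by TCF and LEF factors.
Lck, chr4:129573612-129573891, minus strand: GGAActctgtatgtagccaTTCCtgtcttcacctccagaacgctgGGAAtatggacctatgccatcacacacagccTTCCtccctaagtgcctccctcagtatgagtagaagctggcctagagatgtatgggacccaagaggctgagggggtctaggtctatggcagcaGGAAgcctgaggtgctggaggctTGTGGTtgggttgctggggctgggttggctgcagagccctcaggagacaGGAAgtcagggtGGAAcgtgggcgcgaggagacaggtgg
Lat, chr7:126369539-126369818, minus strand: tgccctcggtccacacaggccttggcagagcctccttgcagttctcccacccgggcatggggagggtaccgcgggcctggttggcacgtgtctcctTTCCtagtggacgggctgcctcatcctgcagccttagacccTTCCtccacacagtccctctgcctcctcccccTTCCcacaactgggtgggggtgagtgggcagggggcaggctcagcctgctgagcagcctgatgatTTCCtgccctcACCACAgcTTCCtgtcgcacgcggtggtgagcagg
Fyn, chr10:39369549-39369828, plus strand: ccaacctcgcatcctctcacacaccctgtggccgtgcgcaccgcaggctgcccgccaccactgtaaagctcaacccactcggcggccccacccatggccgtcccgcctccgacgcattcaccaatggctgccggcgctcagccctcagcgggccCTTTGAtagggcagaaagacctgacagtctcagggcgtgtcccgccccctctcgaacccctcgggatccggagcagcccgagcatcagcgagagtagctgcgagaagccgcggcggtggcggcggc
Plcg1, chr2:160731060-160731339, plus strand: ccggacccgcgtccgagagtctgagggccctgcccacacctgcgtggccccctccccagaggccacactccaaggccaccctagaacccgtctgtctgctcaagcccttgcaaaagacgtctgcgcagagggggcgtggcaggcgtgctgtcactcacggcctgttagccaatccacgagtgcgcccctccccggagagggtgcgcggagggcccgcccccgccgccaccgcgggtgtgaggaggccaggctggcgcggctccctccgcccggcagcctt
Grap2, chr15:80623233-80623512, plus strand: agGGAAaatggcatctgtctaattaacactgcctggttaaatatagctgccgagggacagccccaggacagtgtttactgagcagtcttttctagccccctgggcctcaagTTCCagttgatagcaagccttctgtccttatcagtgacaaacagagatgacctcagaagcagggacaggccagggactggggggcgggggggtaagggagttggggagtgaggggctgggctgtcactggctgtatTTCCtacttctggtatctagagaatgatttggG

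Searched on both strands over the full 300 bases, GGAA was found 7 times in the window of Lck shown above and 5 times in that of Lat. It was found 5 times in that of Grap2, and 0 times in those of Fyn and Plcg1. The motif occurs in 96% of all 32851 windows of the table and in 11 of the 14 windows of the 9 genes. TGTGGT was found in 4 of the 14 windows, once each in a window of Lck, Lat, Zap70 and Txk, against 16.8% of all windows. The windows of Zap70 and Txk that held it, and those of Fyn and Grap2, lie wholly inside the gene spans given below. CTTTGA, which also covers the longer form TTCAAAG, was found in 4 of the 14, against 16% of all windows. It occurred once each in a window of Fyn, Zap70, Lcp2 and Txk. CANNTG, the E-box, was found in 13 of the 14 windows, against 72.3% of all windows. Its mean number of matches per window was 1.36 in the 14 windows and 1.39 over all windows. The windows of Fyn and Plcg1 held 69.0% and 72.0% G or C, against a median of 52.7% over all windows, while those of Lcp2 and Txk held 43.3% and 42.7%. Such matches are a description of the letters in these windows only, and binding of a factor was not measured.

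B and T cells were compared to describe how far the genes of this pathway separate the cell types. All 9 genes were higher in T cells (limma, Benjamini-Hochberg adjusted p at most 1.3e-10). For all 9, every T cell library lay above every B cell library. Zap70, Txk, Lat, Lcp2 and Themis passed the filter only through T cell libraries, so the direction of their calls was largely set by the filter. Among all genes tested, 41.6% were called higher in T cells and 29.7% had every T cell library above every B cell library, and 9.76% were called higher in T cells with a log2 difference of at least 1, a size that all 9 genes reached. When libraries were rescaled to a total of 1000000, 28.4% of all calls were higher in T cells, against 57% under the authors' scaling, and all 9 genes were called higher in T cells there too. The median difference of the 9 was 5.24 on the log2(adjusted TPM + 1) scale, against 0.09 over all genes tested. The levels in B cells formed a graded series. Grap2, Fyn and Plcg1 kept 38.4%, 14.7% and 11.2% of their T cell level in B cells, Lck 3.52%, Lcp2, Txk and Zap70 between 0.727% and 0.999%, and Lat 0.178%, while Themis was at no more than 0.000389 adjusted TPM in any B cell library. In bulk RNA, a level carried by few cells and a low level in every cell cannot be told apart.

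**Figure D1:**
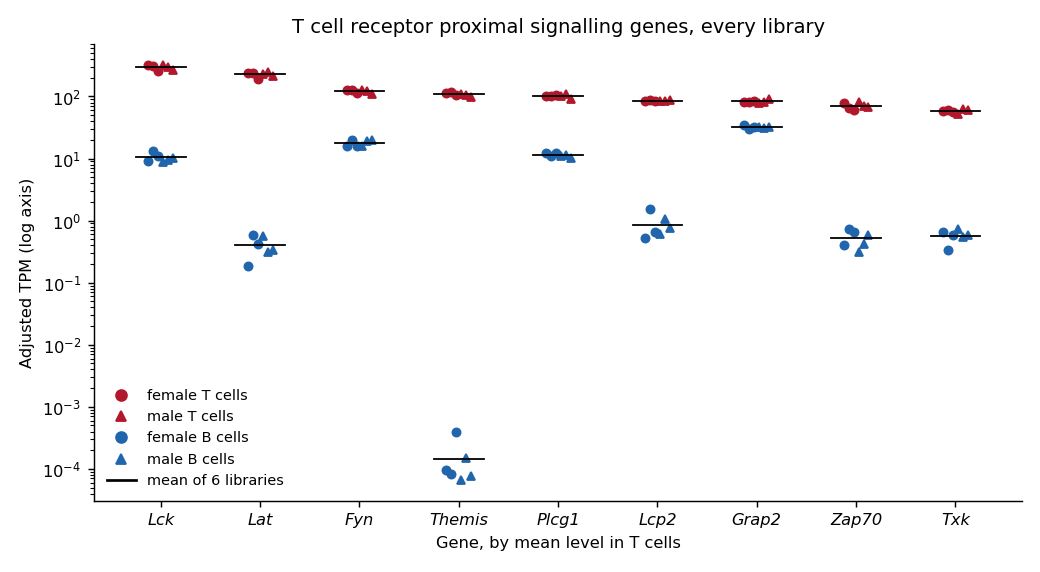
Adjusted TPM of the 9 genes on a log axis in every library, ordered by mean level in T cells. Red points are T cells and blue points B cells, circles are female and triangles male libraries, and black lines are means of 6 libraries. The T cell points lie between 52.7 and 325, whereas the B cell points run from 34.5 for Grap2 down to 0.0000661 for Themis.

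Among the kinases, Lck had the highest level. It lies on chromosome 4 (129548344 to 129573641, minus strand, GRCm38). Its adjusted TPM was 321, 305 and 260 in female T cell libraries 4, 5 and 6 and 325, 301 and 265 in male T cell libraries 4, 5 and 6. In B cells it was 9.24, 13.4 and 11.2 in female libraries 1, 2 and 3 and 8.94, 9.43 and 10.4 in male libraries 1, 2 and 3. The lowest T cell library was 19.4 times the highest B cell library, and both libraries numbered 6 were the lowest of the T cells. The mean was 296 ± 27.6 (SD, n = 6) in T cells and 10.4 ± 1.68 (SD, n = 6) in B cells, a log2 difference of 4.71 (95% interval 4.51 to 4.90, adjusted p = 4.6e-14). Without the 2 libraries numbered 6 the T cell mean was 313 ± 11.6 (SD, n = 4) and the difference was 4.79.

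Fyn, which acts beside Lck, was less restricted to T cells. This gene (chromosome 10, 39368855 to 39565381, plus strand) ranged from 111 to 129 in T cells, with a median of 125, and from 15.7 to 20.2 in B cells, with a median of 17.7. The log2 difference was 2.70 (95% interval 2.53 to 2.87, adjusted p = 3.4e-12), and 2.76 without the libraries numbered 6. Fyn was thus above Lck in all 6 B cell libraries and below it in all 6 T cell libraries.

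Zap70 (chromosome 1, 36761798 to 36782818, plus strand), the kinase that docks on the activated receptor, had 77.9, 66.1 and 61.0 in female T cell libraries 4 to 6 and 81.0, 71.2 and 68.8 in the male ones. It ranged from 0.308 to 0.722 in B cells. The groups were far apart, with a log2 difference of 5.57 (95% interval 5.39 to 5.75, adjusted p = 4.4e-15). Txk (chromosome 5, 72695978 to 72752777, minus strand), a Tec family kinase also called Rlk, ranged from 52.7 to 61.9 in T cells and from 0.339 to 0.720 in B cells. Its log2 difference was 5.24 (95% interval 5.09 to 5.39, adjusted p = 1.5e-15). Leaving out the libraries numbered 6 gave 5.63 for Zap70 and 5.24 for Txk.

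The adaptors showed the widest range of differences. Lat (chromosome 7, 126363824 to 126369570, minus strand), the membrane scaffold that Zap70 phosphorylates, had 238, 238 and 195 in female T cell libraries 4 to 6 and 234, 248 and 218 in the male ones. In the B cell libraries it lay between 0.189 and 0.594. This was the largest difference of the 9 genes on the log2(adjusted TPM + 1) scale, at 7.35 (95% interval 7.17 to 7.54, adjusted p = 4.8e-16), and ranked 9 among all genes tested for a difference towards T cells. With a pseudocount of 0.1 instead of 1 it was 8.88, and Themis, at 10.08, was then the largest. Without the libraries numbered 6, in which Lat was lowest, the difference was 7.43.

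Lcp2 (chromosome 11, 34046920 to 34092295, plus strand), which encodes SLP-76, was the most even of the genes in T cells. Its levels there were 83.5, 86.3 and 85.2 in the female libraries and 83.8, 85.5 and 86.2 in the male ones, a coefficient of variation of 1.39% over 6 libraries, against 5.44% to 10.5% for the other 8 genes. In B cells it had 0.519, 1.53 and 0.653 in the female libraries and 0.602, 1.05 and 0.752 in the male ones. The log2 difference was 5.56 (95% interval 5.32 to 5.80, adjusted p = 6.9e-14), and the same value, 5.56, was found without the libraries numbered 6. Female B cell library 2 was the highest B cell library for Lcp2, Lck, Fyn, Zap70 and Lat, and the lowest for Txk (0.339) and Grap2 (29.5). The share of all genes that were highest in this library is not given here. The summed level of the platelet genes Pf4, Itga2b and Gp9 was also highest there, at 6.82 against 1.81 to 5.72 in the other B cell libraries. Of these, Gp9 alone was higher in male B cell library 3, at 1.27 against 0.881. Cd8a was 2.31 in female B cell library 2 against 0.591 to 1.42, but Cd8b1 was lowest there, at 0.0153 against at most 0.0804. The summed T cell markers were 0.738 there, within the B cell range of 0.649 to 1.21. The part of other cells in these levels was not tested. Without that library the mean of Lcp2 in B cells was 0.715 ± 0.205 (SD, n = 5) in place of 0.850 ± 0.378 (SD, n = 6), and that of Lck was 9.83 ± 0.917 in place of 10.4 ± 1.68.

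Grap2 (chromosome 15, 80572594 to 80652854, plus strand), whose product GADS joins LAT to SLP-76, differed least. It had 82.1, 80.2 and 85.3 in female T cell libraries 4 to 6 and 78.9, 81.4 and 91.4 in the male ones. B cell libraries had 34.5, 29.5 and 32.6 in females and 32.0, 30.6 and 32.8 in males. The groups did not overlap, and the log2 difference was 1.35 (95% interval 1.23 to 1.47, adjusted p = 1.3e-10). When libraries were rescaled to a total of 1000000 it was 0.98, a scaling that moved the median of all genes tested from 0.09 to -0.26. Grap2 was the only one of the 9 genes for which both libraries numbered 6 lay above the other T cell libraries, and without them the difference was 1.31.

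Plcg1 (chromosome 2, 160731300 to 160775760, plus strand), the phospholipase that the complex activates, ranged from 89.9 to 109 in T cells, with a median of 101, and from 10.3 to 12.3 in B cells, with a median of 11.3. The log2 difference was 3.05 (95% interval 2.92 to 3.17, adjusted p = 5.3e-14), and 3.07 without the libraries numbered 6. The opposite-strand gene Zhx3, which overlaps Plcg1, had a mean of 2.31 in B cells and one of 10.2 in T cells. Pseudogenes and noncoding genes on the opposite strand of Fyn, Zap70 and Plcg1 reached at most 3.55 in any library. Whether the values were counted by strand is not given in the sources used here.

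Themis (chromosome 10, 28668360 to 28883818, plus strand), a regulator needed for T cell selection in the thymus, was the most exclusive. It had 113, 118 and 107 in female T cell libraries 4 to 6 and 108, 107 and 98.4 in the male ones. In B cells no library was above 0.000389, and the highest upper bound of the deposited interval was 0.00162. Values this close to 0 have little precision, and no fold is drawn from them. The difference was 6.77 (95% interval 6.67 to 6.88, adjusted p = 2.9e-17) and depends on the pseudocount, since it was 10.08 with a pseudocount of 0.1. Without the libraries numbered 6 it was 6.81.

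**Figure D2:**
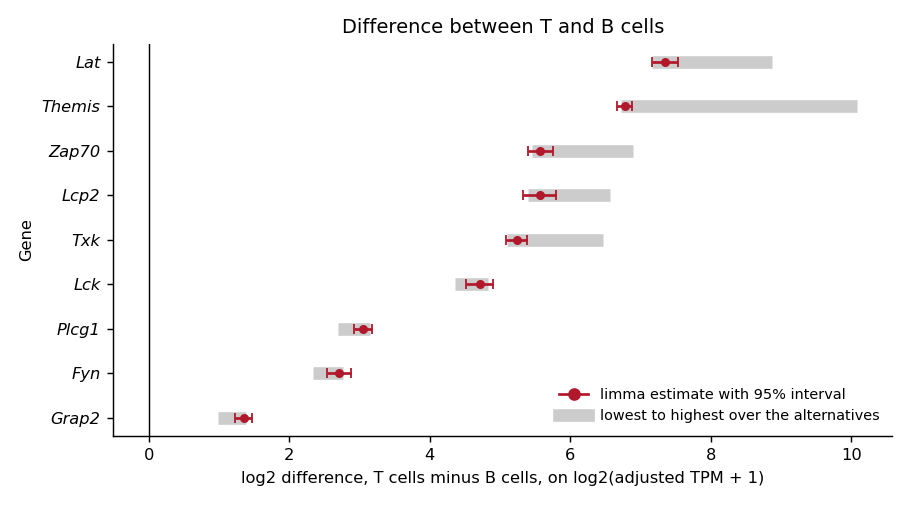
Difference between T and B cells in log2(adjusted TPM + 1) for each gene. Red points with bars are limma estimates with 95% intervals, and grey bars run from the lowest to the highest estimate over the processing alternatives. All estimates are above 0, from 1.35 for Grap2 to 7.35 for Lat, and the grey bars are widest for genes near 0 in B cells such as Themis.

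Within T cells the order of levels was Lck, Lat, Fyn, Themis, Plcg1, Lcp2, Grap2, Zap70 and Txk, with means of 296, 228, 122, 108, 101, 85.1, 83.2, 71.0 and 58.3 adjusted TPM. The ranges of neighbours did not overlap between Lck and Lat, between Lat and Fyn and between Plcg1 and Lcp2, and overlapped in the other 5 neighbouring pairs. Lcp2 was above Grap2 in 4 of 6 libraries, and their ranges overlapped. Without the libraries numbered 6, the ranges did not overlap in 6 of the 8 neighbouring pairs, and Lcp2, at 83.5 to 86.3, then lay above Grap2, at 78.9 to 82.1. All 9 genes were among the more abundant transcripts of T cells, from Txk, with a T cell level above that of 90.0% of the genes tested, to Lck, above 98.2%.

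In B cells the order was different. Grap2 led with a mean of 32.0 ± 1.78 (SD, n = 6), followed by Fyn with 17.9 ± 2.13, Plcg1 with 11.4 ± 0.785 and Lck with 10.4 ± 1.68. The ranges of Plcg1 and Lck overlapped. Lcp2, Txk, Zap70 and Lat followed with means between 0.406 and 0.850 and overlapping ranges, and Themis was last. Beside these levels, the 6 T cell markers had 0.00189% to 0.146% of their T cell level in B cells, and at most 0.208% in any single library. The mean B cell levels of Grap2, Fyn, Plcg1, Lck, Lcp2, Txk and Zap70 were 0.727% to 38.4% of the T cell level, and that of Lat was 0.178%, with 0.260% in its highest library. The 4 monocyte and macrophage markers summed to 11.9 to 16.0 adjusted TPM in the B cell libraries and the 3 platelet markers to 1.81 to 6.82. The part of T cells or of these other cells in the B cell levels was not tested.

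Each gene was next set beside the relative that serves the B cell receptor. All 9 relatives were called higher in B cells, against 31.4% of all genes tested. For all 9, every B cell library lay above every T cell library, against 24.2% of all genes. These relatives were chosen for their known role in B cell receptor signalling. All but Grap passed the filter only through B cell libraries. The direction of their calls was thus largely set in advance, and no conclusion is drawn from these counts. Syk, the relative of Zap70, had 264 ± 11.0 (SD, n = 6) in B cells and no T cell library above 0.790, a log2 difference of 7.77 towards B cells (95% interval 7.52 to 8.02, adjusted p = 4.6e-15). Lyn and Blk, the Src family kinases of the B cell receptor, had 202 ± 10.8 and 161 ± 8.85 in B cells, with log2 differences of 7.29 and 7.24 towards B cells. Blnk, or SLP-65, had 126 ± 7.68, Plcg2 116 ± 4.88, Lat2 80.1 ± 5.03, Btk 76.9 ± 4.13 and Themis2 57.1 ± 3.07 in B cells, and these 5 relatives were at no more than 0.729 in T cells. The exception in size was Grap, the relative of Grap2, with 111 ± 13.1 in B cells and 71.7 adjusted TPM in T cells, a log2 difference of 0.62 (95% interval 0.41 to 0.83, adjusted p = 8.2e-05). Grap2 and Grap were the pair in which both genes were at or above 29.5 adjusted TPM in every library.

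The residual level of these relatives in T cells was highest in female T cell library 6 for 8 of the 9, all but Grap, which was lowest there. The share of all genes tested that were highest in that library is not given here, so the count is a description only. The margin was small for Btk, at 0.131 against 0.127 in female T cell library 4. It was also small for Blk, at 0.150 against 0.132 in male T cell library 6. For Lyn the residual level was 1.08 in female T cell library 6 and between 0.0218 and 0.454 in the other T cell libraries. The summed level of the 4 B cell markers was also highest there, at 4.91 against 0.896 to 2.43, as was that of the 4 monocyte and macrophage markers, at 5.34 against 1.07 to 2.43. Their part in these residual levels was not tested.

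Within a library, the log2 ratio of each gene to its relative was above 0 in every T cell library and below 0 in every B cell library for 8 of the 9 pairs. For Lck against Blk the ratio ran from 10.8 to 15.2 in T cells and from -4.21 to -3.68 in B cells. For Zap70 against Syk it ran from 6.27 to 18.9 in T cells and from -9.75 to -8.48 in B cells, and the upper end in T cells rests on a Syk value of 0.000161 in male T cell library 4, which has little precision. For Fyn against Lyn it ran from 6.71 to 12.5 and from -3.70 to -3.35, and for Plcg1 against Plcg2 from 8.20 to 12.5 and from -3.53 to -3.16. The pair of Grap2 and Grap shifted without a switch, from -2.09 to -1.36 in B cells to -0.01 to 0.53 in T cells, where Grap2 exceeded Grap in 4 of 6 libraries. The ranges of the 2 cell types did not overlap for any of the 9 pairs, with or without the libraries numbered 6. This separation of the ratios follows from the levels given above and is not a further result. Each of the 9 genes was higher in every T cell library, and each relative was higher in every B cell library. Without the libraries numbered 6, all 9 relatives were called higher in B cells.

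**Figure D3:**
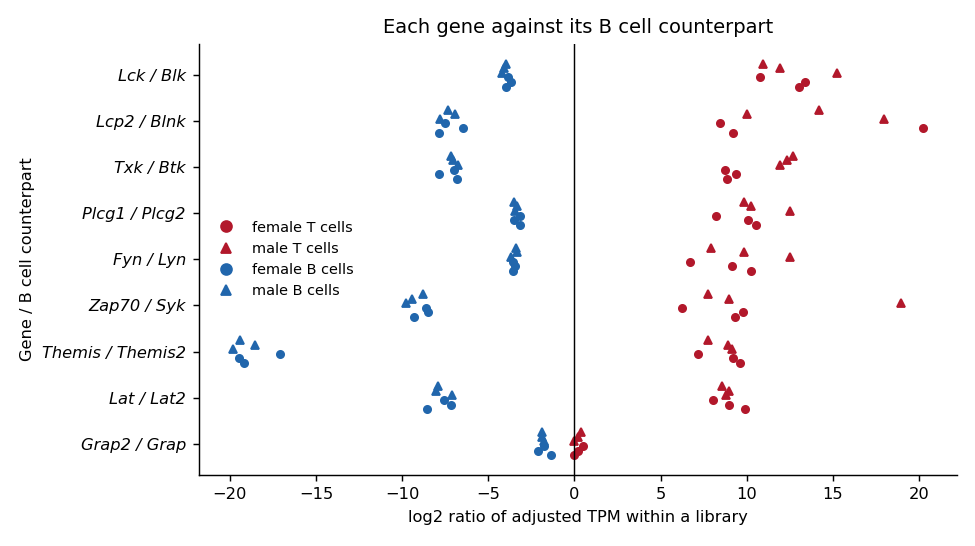
Log2 ratio of adjusted TPM of each gene to its B cell relative within a library. Red points are T cells and blue points B cells, circles are female and triangles male libraries. The 2 cell types lie on opposite sides of 0 for 8 pairs, while Grap2 against Grap runs from -2.09 to -1.36 in B cells and from -0.01 to 0.53 in T cells.

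Gene families were also summed. In the Syk, phospholipase C gamma, SLP and THEMIS families the pair made up nearly all of the sum. Shares in these families thus restate the ratios above. Syk made up at least 99.7% of the Syk family in B cells and Zap70 at least 98.7% in T cells, and the family sum was larger in B cells, at 253 to 285 against 61.8 to 81.0 adjusted TPM. Plcg1 made up 7.97% to 10.1% of phospholipase C gamma transcripts in B cells and 99.7% or more in T cells. Lcp2 made up 0.429% to 1.11% of the SLP adaptors in B cells and 99.7% or more in T cells, where Blnk had at most 0.285% and Clnk at most 0.00281%. Among the transmembrane adaptors, Lat made up 47.9% to 50.7% in T cells, followed by Trat1 (12.6% to 15.4%), Lime1 (11.95% to 13.8%), Sit1 (9.24% to 13.4%), Pag1 (7.52% to 9.33%) and Lax1 (4.19% to 5.55%). In B cells Lat2 led with 38.5% to 40.7%, followed by Lax1 (28.2% to 31.7%), Pag1 (20.8% to 23.8%), Lime1 (4.91% to 7.59%) and Sit1 (2.04% to 2.65%). In the GRB2 family all 3 genes were present in both cell types. Grap2 went from a share of 11.4% to 16.1% in B cells to 37.7% to 45.0% in T cells, while Grb2 went from 40.0% to 43.2% in B cells to 21.8% to 24.4% in T cells and Grap from 41.3% to 48.6% to 31.3% to 38.1%. Themis2 made up over 99.9% of the THEMIS transcripts in B cells and no more than 0.677% in T cells. The gene with the largest mean share differed between the cell types in these 6 families, also without the libraries numbered 6. In the GRB2 family this did not hold library by library. Grap was above Grap2 in female T cell library 4 (38.1% against 37.8%) and male T cell library 4 (37.9% against 37.7%). Grb2 was above Grap in female B cell library 1 (42.6% against 41.3%).

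**Figure D4:**
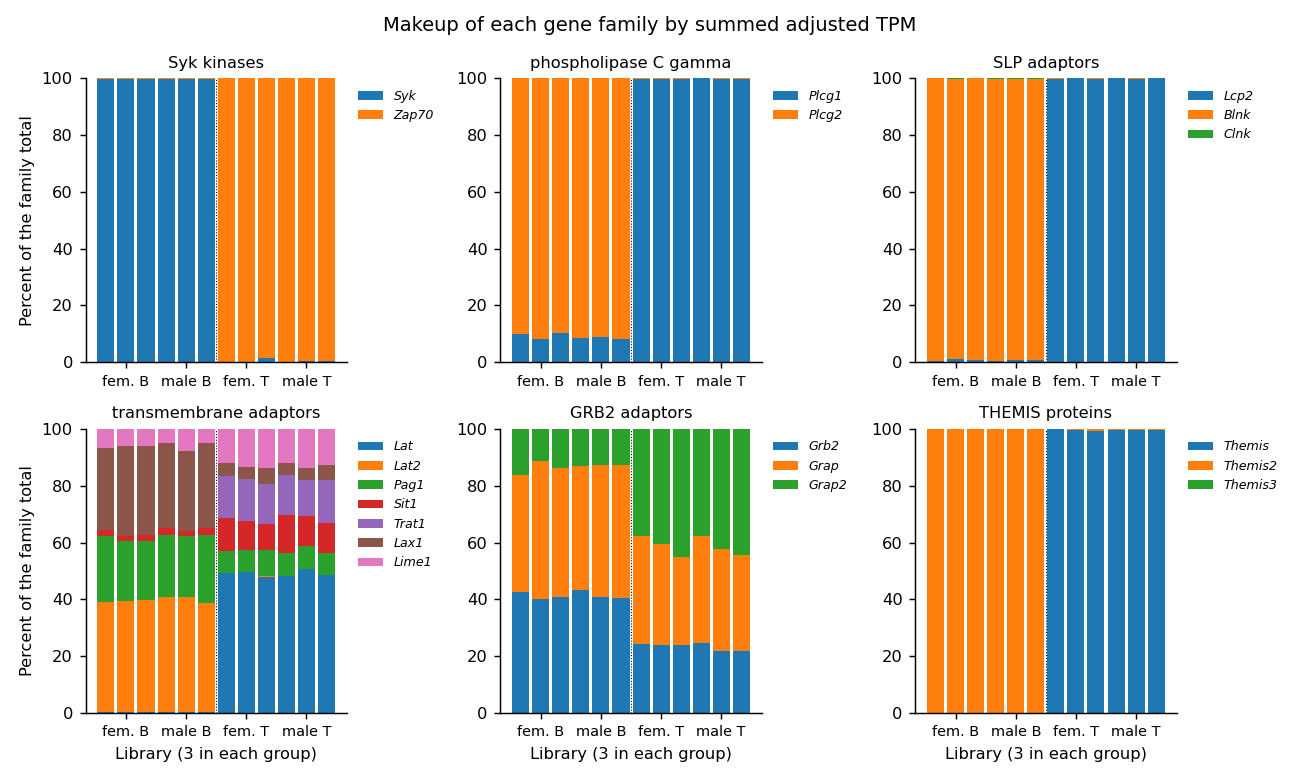
Share of each gene in the summed adjusted TPM of its family, in percent, for 6 families with 1 bar for each of the 12 libraries and a dotted line between B and T cells. Bars of a cell type look alike, Lat holds 47.9% to 50.7% of the transmembrane adaptors in T cells, and only the GRB2 adaptors keep every member at a share of 11.4% or more in both cell types.

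The rest of the pathway was described with a list of 45 genes, of which 44 passed the filter. Of these, 30 were called higher in T cells, 11 higher in B cells and 3 (Vav1, Cbl and Sos1) were not called. These are 68.2% and 25% of the list, against 41.6% and 31.4% of all genes tested. Without the libraries numbered 6, 30 were called higher in T cells and 13 higher in B cells, Cbl (limma, adjusted p = 0.0088) and Sos1 (limma, adjusted p = 2.2e-05) being called in addition. The median log2 difference was 1.40 towards T cells, against 5.24 for the 9 genes and 0.09 over all genes tested. The receptor and coreceptor genes were all higher in T cells, 9 of 9, with a median of 6.91. Of the adaptors, 11 of 16 (68.8%) were called higher in T cells and 4 (25%) higher in B cells, of the kinases 2 and 3 of 5, and of the negative regulators 7 (63.6%) and 3 (27.3%) of 11.

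The 4 largest differences towards T cells were in the receptor chains Cd3g and Cd3d, the coreceptor Cd4 and Prkcq, the protein kinase C theta that acts downstream. Cd3g had 464 ± 57.7 (SD, n = 6) in T cells and no B cell library above 0.142, a log2 difference of 8.79 (adjusted p = 1.2e-16). Cd4, Cd3d and Prkcq had differences of 7.58, 7.33 and 7.16, with T cell means of 191, 196 and 175. The 4 largest towards B cells were much smaller. Tec had 63.6 ± 1.48 in B cells and 11.4 ± 0.827 in T cells (SD, n = 6 each), a log2 difference of 2.39 towards B cells (adjusted p = 3.6e-14). Ptpn6, the phosphatase SHP-1 that opposes receptor signalling, had 352 ± 20.4 and 97.3 ± 14.4, a difference of 1.86. Map4k1, the kinase HPK1 that acts on SLP adaptors, and the membrane adaptor Lax1 had differences of 1.72 and 1.46 towards B cells. All 4 were well expressed in both cell types.

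The genes with the most similar profile over the 12 libraries were found by the root mean square difference in log2(adjusted TPM + 1). Themis was closest to Cd6 (0.06), a surface receptor of T cells, and to Bcl11b (0.17), a T cell transcription factor. Lat was closest to Il7r (0.17), the receptor for interleukin 7, and to Cd247 (0.23), the zeta chain of the receptor. Zap70 and Txk were near each other (0.29), and both were closest to Gm12840 (0.20 and 0.23), while Lcp2 was closest to Zap70 (0.32) and Fyb (0.38), an adaptor that binds SLP-76. Fyn was closest to Tecpr1 (0.13) and Sept9 (0.19), Plcg1 to Fam78a (0.16) and Utrn (0.26), Grap2 to Nabp1 (0.12) and Cast (0.14), and Lck to Tmem66 (0.24) and Spn (0.63).

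The sexes were set against each other in B cells and in T cells, to describe whether the pathway depends on sex. None of the 9 genes was called in B cells (0 of 9, limma) or in T cells (0 of 9, limma), and 0 of 9 had an unadjusted p under 0.05 in either. Among all genes tested, 0.144% were called in B cells and 0.104% in T cells. In B cells the differences on the log2(adjusted TPM + 1) scale, females minus males, ran from -0.09 for Txk to 0.20 for Lck. The mean of Lck in B cells was 11.3 ± 2.09 (SD, n = 3) for females and 9.58 ± 0.730 (SD, n = 3) for males, with a 95% interval of the difference from -0.07 to 0.48 (limma, unadjusted p = 0.13). In T cells they ran from -0.11 for Zap70 to 0.10 for Themis, with means of 112 ± 5.60 (SD, n = 3) for females and 105 ± 5.37 (SD, n = 3) for males. The 95% intervals of the 9 genes lay between -0.30 and 0.48 in B cells and between -0.36 and 0.33 in T cells. Differences within these bounds were not resolved with 3 libraries per group. Zap70, Lat, Lcp2, Txk and Themis had B cell means under 1 adjusted TPM, where this scale compresses a fold difference. For Zap70, B cell means of 0.596 in females and 0.436 in males gave a difference of 0.15. The B cell bounds of these genes therefore set no limit on a fold difference. In T cells, where libraries of the same number deviated together, Zap70 was lower and Themis higher in females in 3 of 3 pairs, and no other of the 9 genes went one way in all pairs. The share of all genes tested that went one way in all pairs is not given here, and no conclusion is drawn from this count. With the number as a block the intervals in T cells lay between -0.34 and 0.26, and 0 of 9 genes were called or had an unadjusted p under 0.05 (limma, unadjusted p = 0.18 for Zap70 and 0.16 for Themis). The difference between the sex effects of B and T cells was called for 0 of the 9 genes (limma, smallest unadjusted p = 0.14), against 0% of all genes, of which 295 had an unadjusted p under 0.05. These differences ran from -0.10 for Themis to 0.26 for Zap70.

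**Figure D5:**
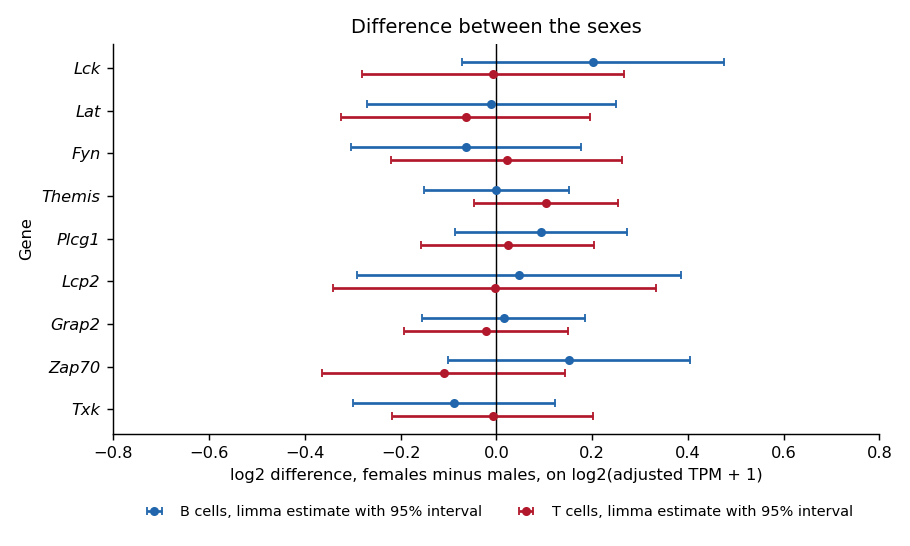
Difference between females and males in log2(adjusted TPM + 1) for each gene, with limma estimates as points and 95% intervals as bars, blue for B cells and red for T cells. All intervals cross 0, and the estimates lie between -0.11 and 0.20. For genes with B cell means under 1 adjusted TPM, the B cell intervals set no limit on a fold difference.

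The spread between replicates within groups was near that of other genes for most of the 9. The pooled SD of log2(adjusted TPM + 1) had a median of 0.15 over the 9 genes, against 0.14 over all genes tested. Genes of a like level were matched on the mean in the cell type where each gene was higher. The low B cell levels of Lcp2 and Themis were thus not matched. Lcp2 had the largest pooled SD, 0.22, larger than in 90.2% of 834 genes of a like level. It came from B cells, where the SD was 0.31 against 0.02 in T cells, so that share does not compare Lcp2 with genes of its B cell level. Themis had the smallest, 0.05, with 1.88% of 637 genes of a like level below it, and its B cell values, near 0, added nothing to the spread. Zap70 was above 70.3% of such genes and Plcg1 above 23.7%.

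Within T cells, part of the spread followed the libraries numbered 6. Lck, Fyn, Lat and Themis were lower in both of them than in any other T cell library, and Grap2 was higher. Among all genes tested, 18.6% were lower and 17.0% were higher in both. For Lck the levels were 260 and 265 in these 2 libraries against 301 to 325 in the other 4, and for Fyn 111 and 113 against 123 to 129. The markers of regulatory T cells differed in the same 2 libraries, as given above, and their part in these levels was not tested. The intervals deposited with the values were narrow in T cells, with a ratio of upper to lower bound between 1.04 and 1.11 for the 9 genes. Of the 15 pairs of T cell libraries, 12 had separate intervals for Lck, Zap70 and Lat and 0 for Lcp2, so these bounds do not cover the differences between libraries for the former. In B cells the ratio was between 1.07 and 1.37 for Grap2, Fyn, Plcg1 and Lck, between 1.57 and 7.51 for Lcp2, Txk, Zap70 and Lat, and up to 23.9 for Themis.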

How the data were processed

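RNA of resting B cells and of naive CD4+ T cells was sequenced in 12 libraries, 3 per sex and cell type, grouped by the labels of each sample. Per the labels, ribosomal RNA was removed and strand-specific libraries were made, and the submitters' processing notes name Trim Galore, FastQC, STAR and the build mm10 without versions. The table deposited by the authors holds a signal, named adjusted TPM, as a point estimate with a lower and an upper bound for 41128 genes. The quantifier, the annotation, how values were adjusted and what level the bounds stand for are not given in the sources used here. Values are not read counts, 0 of them are exactly 0, and the depth is unknown, so precision was read from the bounds and the replicates. Some label fields call the material genomic DNA, and the values were treated as RNA.

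The 12520 genes that reached 1 adjusted TPM in 3 libraries or more were tested by limma 3.58.1 (R 4.3.3) on log2(adjusted TPM + 1), which understates the change of low genes, with 1 coefficient per group, a mean-variance trend and Benjamini-Hochberg adjustment over all genes tested. An adjusted p under 0.05 is called. Because samples of a group are pools, p-values measure the spread between pools. The fits were tested on simulated data. Family shares, ratios, spreads and profiles were computed with Python 3.11.15, numpy 2.4.6 and pandas 2.3.3, and matplotlib 3.10.9 drew the plots. Profiles were compared over the genes tested, and 2 neighbours were named per gene. Of the other pathway genes, the 4 largest differences in each direction that were called without overlap were named, as were family members with a share of at least 1% in a library. Some genes and families of the lists are not reported here.

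Coordinates come from GENCODE M21 on GRCm38, to which 40254 genes (97.9%) matched by identifier, and promoter windows from RefSeq on GRCm38.p6. The 9 genes and all lists were chosen with earlier results of these data known. Deviations from the group mean of the T cell libraries correlated between females and males of the same number over all genes tested. The values were 0.72, 0.55 and 0.52 for numbers 4, 5 and 6. They are not independent, since the deviations within a group sum to 0. The labels name no pair or batch, so a pairing by number is read from these values only. Deviations of the B cell libraries did not correlate in this way, at -0.17, -0.04 and -0.34 for numbers 1, 2 and 3. The sample descriptions also carry a digit whose meaning is not given. It is 2 for female and 1 for male B cells, and 1 for female and 2 for male T cells. The sex differences, and their difference between the cell types, cannot be told apart from whatever this digit stands for.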

Additional observations from a re-analysis of the deposited data

How the results depend on the processing

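The alternatives changed the pseudocount, the filter, the scaling between libraries, the variance trend, the deposited bound, the minimum difference or the libraries used. Not every alternative gave every comparison. The 9 genes were called higher in T cells in all 25 that gave the cell type comparison. By sex, 0 of 9 were called in the 25 for B cells, the 25 for T cells and the 24 for the difference between the sex effects. Without the filter, 10985 of 41128 genes were called by sex in B cells, 10607 in T cells and 11201 for the difference. With the filter these counts were 18, 13 and 0 of 12520 genes. Most genes of the unfiltered fit lay below the filter on low values, so its counts are not read as differences by sex. That fit is among the alternatives counted above. The relatives called higher in B cells numbered 8 to 9 over the alternatives. Leaving out each library in turn gave 9 of 9 genes called higher in T cells throughout, 30 pathway genes higher in T cells, 11 to 12 higher in B cells and 9 relatives higher in B cells. With the library number as a replicate block, 9 genes were called between the cell types and 0 by sex, so the block changed no call of the 9 genes. With a minimum log2 difference of 1, the pathway genes called higher in B cells fell from 11 to 4, because smaller differences are then not called, and 24 were called higher in T cells. The count higher in B cells was 12 with the block, 13 without both libraries numbered 6 and 14 with totals of 1000000. The number of neighbouring pairs in the T cell order with ranges apart, 3 of 8 as deposited, was 1 when libraries were rescaled to a total of 1000000 and 6 without both T cell libraries numbered 6, an alternative chosen after the data were seen, and was between 3 and 4 when 1 library was left out. In the cell type comparison over all genes, 57% of calls were higher in T cells as deposited, 28.4% with totals of 1000000, 33.7% with protein-coding totals of 1000000 and 49.7% under median-ratio scaling. Values under 1, as those of Themis, Lat, Zap70 and Txk in B cells, have wide deposited intervals, and their differences move with the pseudocount. The limit that depth sets could not be computed, since depth is unknown.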
